A study of Arabidopsis thaliana with 3 samples.

Results

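Of 22746 probe sets measured in Arabidopsis thaliana seed, 132 gave a clear signal only in seed that had imbibed with trichostatin A (TSA), and these are described here. The samples were unimbibed seed, seed after 3 days of imbibition without inhibitor, and seed after 3 days of imbibition with TSA, all of ecotype Columbia, with 1 Affymetrix ATH1 array each. The labels give the TSA concentration as 10 µM for the treated sample itself and as 10 mM in the general protocol. Whole seeds were used, so fewer cells of a type and less RNA per cell cannot be told apart. The unimbibed sample was checked by the late embryogenesis abundant genes, many of them typical of dry seed. Of 36 paired with a probe set of their own by the platform annotation, 24 were highest before imbibition. Their summed signal was 75114 there, 2802 after imbibition without TSA and 6766 with it, but the imbibed sums also hold genes that were low in dry seed, such as COR47. There are no replicates, so no difference has a replicate check or a p-value.

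Members were chosen from the signals themselves. The 3 arrays were scaled to the same trimmed mean, and a floor was set at the 40th percentile of all scaled signals, a signal of 10.7. A member had a signal under 2 times the floor in both unimbibed and untreated imbibed seed. Its TSA signal had to reach at least 4 times the floor and at least 4 times the untreated signal. The direction and size of the difference between TSA-treated and untreated seed are therefore set by the choice and are given as a description. A fold difference against a signal at the floor is a lower bound and is written as "at least". The arrays came without detection calls, so "seen" means above these limits and a signal at the floor does not show that a transcript was absent.

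TSA blocks histone deacetylases, the enzymes that remove acetyl groups from histone tails. Acetylated histones are typical of open, transcribed chromatin, and deacetylases keep many genes silent, among them genes of the embryo programme after germination has begun. A dry seed holds stored messenger RNA from its maturation, and imbibition starts the change to the transcripts of a seedling. The transcripts described here were chosen for low signals in the dry seed and in seed imbibed for 3 days without the inhibitor. No later time point or seedling was measured, so whether they belong to the transcripts of a seedling was not tested.

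A total of 70 of the 132 members were paired with 1 gene by the platform annotation, each with a different locus and none with a further probe set of its own. A further 5 were paired with several genes and are not named, and 57 were paired with none. The unpaired share was 43.2%, against 38.4% of all probe sets on the array. A gene is said to have its own probe set where the platform annotation pairs a probe set with it alone. A gene without one may still be on the array, under a probe set that is unpaired or paired with several genes. Among the 70 named genes 13 had a symbol of their own, and the other 57 are known here by their locus only. Families and roles of such loci are given from general knowledge, since the tables used hold no gene descriptions. The role groups below were counted among the named members only, so their sizes cannot be set against a share of all named genes. By their locus names 19 of the 70 lay on chromosome 1, 15 on chromosome 2, 11 on chromosome 3, 11 on chromosome 4 and 14 on chromosome 5. The shares were 27.1%, 21.4%, 15.7%, 15.7% and 20%, against 25.7%, 16.3%, 20.4%, 14.5% and 22.4% of all named loci.

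The members ran from dim to bright with TSA. Their lowest TSA signal was 42.9, the median 76.9 and the highest 896. The median of all signals over the floor on the TSA array was 33.8. That is under the limit of 4 times the floor, so all 132 were above it by the choice. They held 1.24% of all signal on that array, against 0.0989% in untreated and 0.0502% in unimbibed seed. The median log2 ratio of TSA-treated over untreated seed was 2.58 over the members and -0.03 over the 15700 probe sets measured in imbibed seed. Of those 15700, 2.27% were at least 4-fold higher with TSA, a contrast that the choice of members used. The 8 brightest members held 28.2% of the members' TSA signal, and 42 members had a TSA signal over 100.

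**Figure D1:**
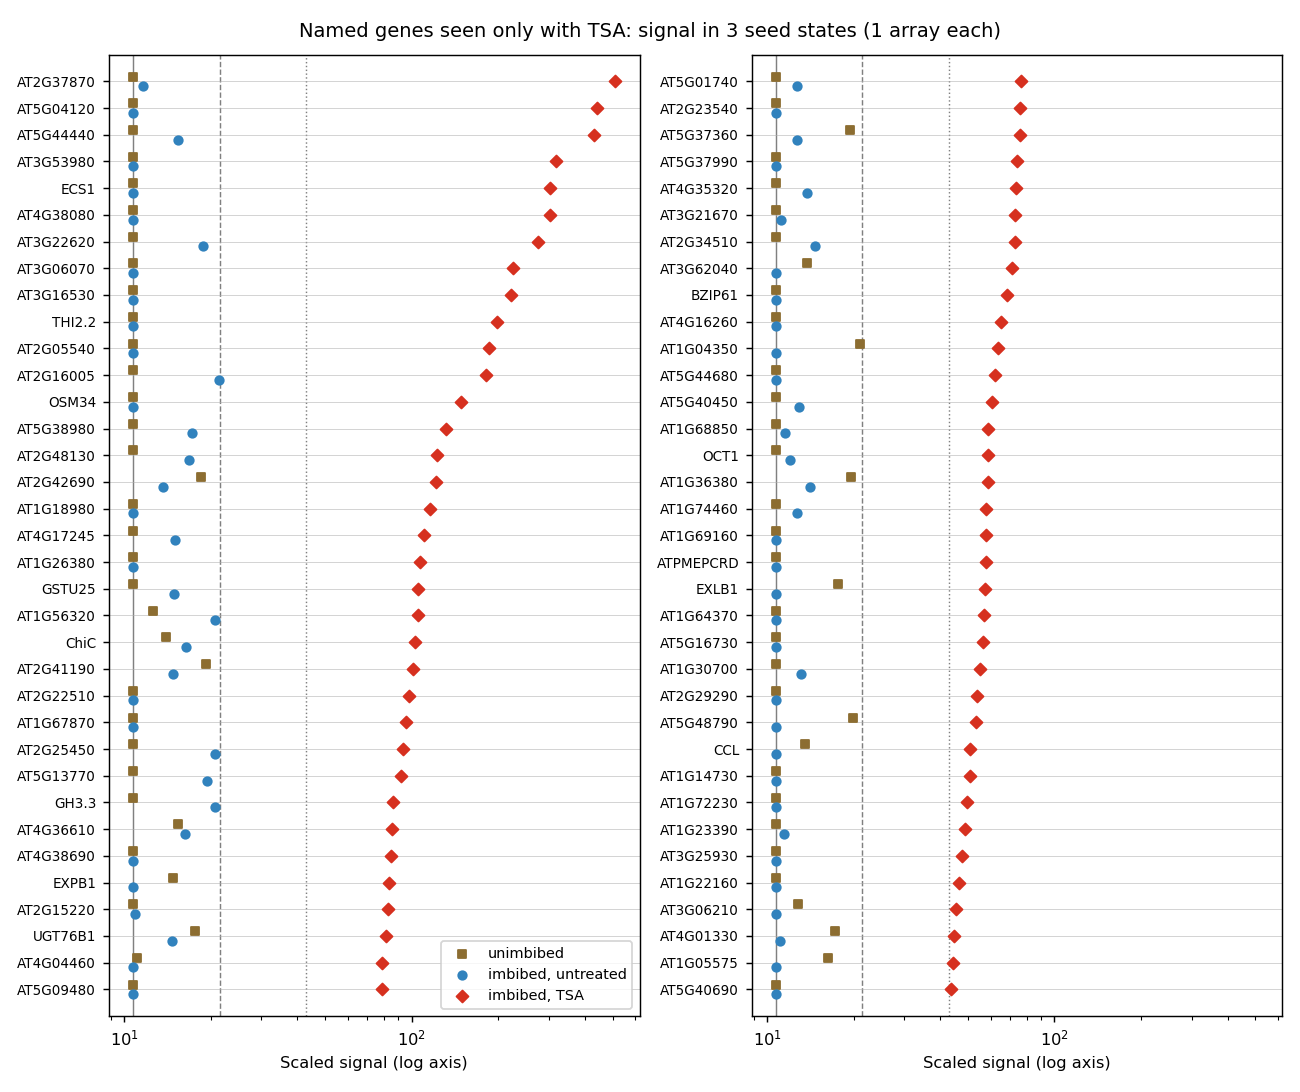
Scaled signal (log axis) of the 70 named genes in unimbibed seed (squares), untreated imbibed seed (circles) and TSA-treated imbibed seed (diamonds), 1 array each, ordered by TSA signal. The solid line is the floor of 10.7, the dashed line is 2 times and the dotted line 4 times the floor; the TSA signals run from 43.8 to 512, and every square and circle lies left of the dashed line by the choice of members.

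The low side was not equally low for all. In untreated imbibed seed 73 members were at the floor and 59 were above it, reaching at most 21.3. In unimbibed seed 102 were at the floor and 30 above it, reaching at most 21.1. Both low states were at the floor for 59 members, of which 30 had a gene name. Another 43 were above the floor in untreated but not in unimbibed seed, 14 in unimbibed but not in untreated seed, and 16 in both.

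**Figure D2:**
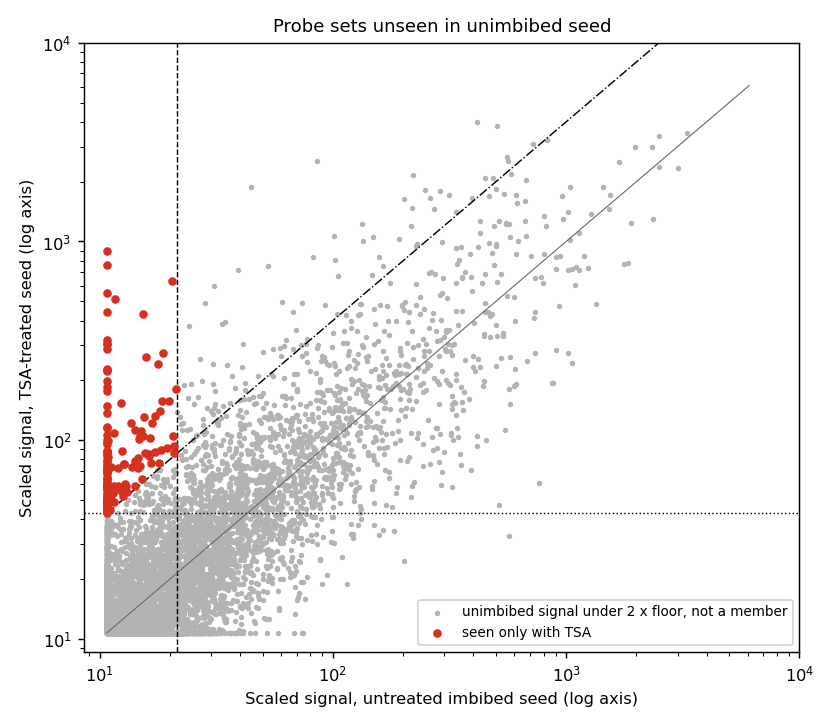
Scaled signal in TSA-treated seed against untreated imbibed seed (both log axes) for probe sets whose unimbibed signal was under 2 times the floor, with members in red. The dashed, dotted and dash-dotted lines are the limits of the choice (21.5, 42.9 and a ratio of 4) and the thin line marks equal signals; 73 members stand at the floor on the left edge.

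The brightest 4 members had no gene name. Probe set 259161_at was at the floor in unimbibed and untreated seed and at 896 with TSA, at least 83.5-fold higher. Probe set 250500_at was likewise at the floor in both and at 760.2 with TSA, at least 70.8-fold higher. The next, 247718_at, went from the floor in unimbibed seed and 20.4 in untreated seed to 629 with TSA, which is 30.9-fold above untreated seed. The fourth, 260221_at, was at the floor in both and at 551 with TSA, at least 51.3-fold higher.

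Proteins of the lipid transfer type made up 4 named members, with TSA signals from 122 to 512. These small secreted proteins carry lipids to the plant surface, and some of the superfamily act in defence signalling. AT2G37870 was at the floor in unimbibed seed, at 11.7 in untreated seed and at 512 with TSA, 43.9-fold above untreated seed and the highest TSA signal of any named member. AT3G53980 was at the floor in both low states and at 318 with TSA, at least 29.6-fold higher. Both AT3G22620 and AT2G48130 are of the type anchored to the membrane by a lipid. AT3G22620 was at the floor in unimbibed seed, at 18.8 in untreated seed and at 276 with TSA, 14.7-fold higher. AT2G48130 was at the floor, at 16.8 and at 122 in the same order, 7.31-fold higher with TSA than without.

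These 4 belong to a list of 73 loci of the lipid transfer protein superfamily, written with earlier results of these data known. Of these loci 34 had their own probe set, and 23 were above the floor in imbibed seed. Of the 23, 7 were at least 2-fold higher with TSA and 4 at least 2-fold lower. The 7 include the 4 members, which were higher by the choice. The median log2 ratio of the 23 was -0.003. Over all probe sets measured in imbibed seed 10.4% were that much higher and 9.51% that much lower. AT5G48490 and AT4G33550 rose with TSA as well, but their untreated signals of 30.97 and 24.13 kept them out of the members. The opposite end of the list was AT5G01870, which fell from 766 without TSA to 61.2 with it. The family was thus spread over both directions, from a log2 ratio of -3.64 to 5.45.

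Defence proteins formed a further group of 7 named members. Their TSA signals ran from 65.4 to 304 with a median of 148, and 6 of the 7 were at the floor in untreated seed. ECS1, counted here by its place on a written list of defence loci, was at the floor in both low states and at 304 with TSA, at least 28.3-fold higher. AT3G16530, a lectin-like protein, was at the floor in both and at 222 with TSA, at least 20.7-fold higher. The thionin THI2.2, of a family of antimicrobial peptides, was also at the floor in both and at 198 with TSA, at least 18.4-fold higher. OSM34, an osmotin of the thaumatin-like family that responds to salt and to pathogens, was at the floor in both and at 148 with TSA, at least 13.8-fold higher.

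AT1G18980, a germin-like protein, went from the floor in both low states to 116, at least 10.8-fold higher. AT4G16260, of the glucanase family that cuts fungal cell walls, went from the floor in both to 65.4, at least 6.09-fold higher. The class V chitinase ChiC was low in both states but above the floor, at 13.9 in unimbibed and 16.4 in untreated seed, and reached 103 with TSA, 6.26-fold above untreated seed. ChiC was thus the 1 defence member with a measured untreated level.

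Only ECS1 of these 7 was on the list of 22 pathogenesis-related loci, of which 10 had their own probe set and 7 were measured in imbibed seed. Of those 7, 4 were at least 2-fold higher with TSA, ECS1 among them by the choice, and none of the 7 was 2-fold lower. Over all measured probe sets 10.4% were that much higher and 9.51% that much lower. The median log2 ratio of the 7 was 1.11. The chitinase CHI rose from 16.8 to 179 and AT2G43590, of the same enzyme family, from 29.7 to 205. CHI met all limits except that its unimbibed signal of 23.0 was over 2 times the floor. AT2G43590 was already at 119 in unimbibed seed. PDF1.2b, a defensin, fell from 636 in unimbibed to 13.8 in untreated seed and was at 29.6 with TSA.

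Proteins of the cell wall made up 9 named members, 8 of them at the floor in untreated seed. AT4G38080, a hydroxyproline-rich protein of the wall, was at the floor in both low states and at 303 with TSA, at least 28.2-fold higher. AT2G05540, a glycine-rich protein, was at the floor in both and at 185 with TSA, at least 17.2-fold higher. Smaller TSA signals from the floor in both were found for AT2G22510 (97.8) and AT5G09480 (78.7), both hydroxyproline-rich, for the glycine-rich AT1G67870 (95.3) and for ATPMEPCRD (57.6), of the family that removes methyl groups from pectin. AT2G34510, of a wall protein family, was the 1 of the 9 above the floor in untreated seed, at 14.7, and reached 72.7.

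EXPB1 and EXLB1 belong to the expansins, which loosen the wall as cells grow. EXPB1 was at 14.8 in unimbibed seed, at the floor in untreated seed and at 83.5 with TSA, at least 7.78-fold above untreated seed. EXLB1 was at 17.7, at the floor and at 57.5, at least 5.35-fold higher. Both were thus above the floor in dry seed but under the limit of 21.5. Among 16 expansins measured in imbibed seed, taken by symbol after the members were known, 5 were at least 2-fold higher with TSA and 3 at least 2-fold lower. The 5 include EXPB1 and EXLB1, which were higher by the choice. Over all measured probe sets 10.4% were that much higher and 9.51% that much lower. The median log2 ratio of the 16 was -0.08. EXPA8 rose from 55.6 to 286, while EXPA7, EXPA18 and EXPA9 fell, with log2 ratios of -1.74, -1.24 and -1.18.

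EXPA7 and EXPA18 are also the 2 measured root hair markers of the 5 listed. Their summed signal was 2.59 in unimbibed seed, 269 in untreated seed and 101 with TSA. In the annotation used, COBL9, RHS19 and MRH6 were not paired with a probe set of their own. Of 9 pollen coat and tapetum loci with their own probe set, 8 were at the floor in imbibed seed, and the 9 had summed signals of 43.5, 59.3 and 74.99 in the 3 states. The 1 seed coat locus so paired was at the floor in imbibed seed, and no shoot epidermis or endosperm marker was so paired. The part of a shift in cell types in the members' signals was not tested.

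Enzymes of specialised chemistry and detoxification were 10 of the named members. Their TSA signals ran from 53.8 to 432 and 4 of the 10 were at the floor in untreated seed. Berberine bridge enzyme-like oxidases, which in Arabidopsis act on defence compounds and cell wall sugars, were represented by 3. AT5G44440 was at the floor in unimbibed seed, at 15.4 in untreated seed and at 432 with TSA, 28.2-fold above untreated seed. AT1G26380 was at the floor in both low states and at 107 with TSA, at least 9.93-fold higher. AT1G30700 was at the floor, at 13.2 and at 54.9, 4.17-fold higher. Of the genes next to these, AT1G26390, beside AT1G26380, was at the floor in both low states and at 21.2 with TSA. AT1G30710, beside AT1G30700, was at 11.6 in unimbibed seed and at the floor in both imbibed states.

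GSTU25 is a tau class glutathione S-transferase, an enzyme that tags foreign and reactive compounds with glutathione. It stood at the floor in unimbibed seed, at 14.9 in untreated seed and at 106 with TSA, 7.08-fold higher. Of 28 listed members of the class, 11 had a probe set of their own and 8 were measured in imbibed seed. Of the 8, 3 rose at least 2-fold with TSA, GSTU25 among them by the choice, and none fell. Over all measured probe sets 10.4% were that much higher and 9.51% that much lower. The median log2 ratio of the 8 was 0.37. The others that rose were GSTU22, from 11.6 to 33.7, and GSTU18, from the floor to 26.7, and both stayed under the limit of 4 times the floor. GSTU26, the gene next to GSTU25, was at 87.8 without and 135 with TSA, a log2 ratio of 0.62.

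UGT76B1, a glycosyltransferase that attaches sugar to defence signals, was at 17.7, 14.7 and 81.7 in unimbibed, untreated and TSA-treated seed, 5.58-fold higher with TSA than without. It was the 1 member among 29 glycosyltransferases measured in imbibed seed and taken by symbol after the members were known. Of the 29, 9 were at least 2-fold higher and 1 at least 2-fold lower with TSA, around a median log2 ratio of 0.37. The 9 include UGT76B1, which was higher by the choice. Over all measured probe sets 10.4% were that much higher and 9.51% that much lower. UGT76C2, the next in ratio, rose from 21.0 to 56.8, and the 1 that fell was UGT78D2, a flavonoid glycosyltransferase, from 100.3 to 37.9.

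The other enzymes of this group had lower TSA signals. AT2G25450, a dioxygenase that modifies glucosinolates, went from 20.8 in untreated seed to 93.7. AT5G37990, of a methyltransferase family whose members act on small acids such as salicylate and jasmonate, was at the floor in both low states and at 74.3 with TSA. The dioxygenase AT1G04350 was at 21.1 in unimbibed seed, at the floor in untreated seed and at 63.6 with TSA. The peroxidase AT1G68850 reached 58.8 and the dehydrogenase AT2G29290 reached 53.8.

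Among lipases, AT2G42690 was at 18.5 in unimbibed seed, at 13.7 in untreated seed and at 122 with TSA, 8.88-fold above untreated seed. AT2G23540 and AT1G74460, of the GDSL family of esterases and lipases, reached 76.1 and 58.0 with TSA. Transport proteins were represented by AT2G41190, of an amino acid transporter family, at 19.3, 14.7 and 101, by the nitrate transporter family member AT3G21670, with a TSA signal of 73.0, and by OCT1, an organic cation and carnitine transporter, with 58.8. All 3 transporters were above the floor in untreated seed. OCT4 and OCT5, relatives of OCT1, had log2 ratios of 0.19 and 0.91, under 2-fold.

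Regulatory genes were few. GH3.3, which joins auxin to amino acids and so lowers free auxin, was at the floor in unimbibed seed, at 20.8 in untreated seed and at 86.1 with TSA, 4.14-fold higher. It was no longer a member under any of 4 other scalings of the arrays or 2 other floors. Of the other GH3 genes measured, GH3.9, GH3.17 and WES1 had log2 ratios of 0.47, 0.41 and 0.10. BZIP61, a basic leucine zipper transcription factor, was at the floor in both low states and at 68.2 with TSA, at least 6.35-fold higher. In the same family BZIP53 rose from 69.7 to 178, while BZIP17, BZIP28 and BZIP60 had log2 ratios of -0.28, 0.28 and 0.04. These family members were taken by symbol after the members were known.

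Several bright members lie outside these groups. AT5G04120, of the phosphoglycerate mutase family, was at the floor in both low states and at 441 with TSA, at least 41.1-fold higher. AT3G06070, a gene with no role given here, was at the floor in both and at 226, at least 21.0-fold higher. AT2G16005, of a lipid-binding domain family, was at the floor in unimbibed seed, at 21.3 in untreated seed and at 181 with TSA, 8.51-fold higher. AT5G38980 was at the floor, at 17.3 and at 132, and AT4G17245, a RING-type protein, at the floor, at 15.1 and at 111. The last 3 were thus measured above the floor in untreated seed.

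Members with TSA signals between 50 and 106 and no place in these groups were AT1G56320, AT5G13770, AT4G36610, AT4G38690, AT2G15220, AT4G04460, AT5G01740, AT5G37360, AT4G35320, AT3G62040, AT5G44680, AT5G40450, AT1G36380, AT1G69160, AT1G64370, AT5G16730, AT5G48790, AT1G14730 and CCL. AT1G72230, AT1G23390 and AT3G25930 lay between 47 and 50. The 5 lowest named TSA signals were 46.5 for AT1G22160, 45.5 for AT3G06210, 44.6 for AT4G01330, 44.5 for AT1G05575 and 43.8 for AT5G40690, close above the limit of 42.9. AT4G01330 was at 17.2 in unimbibed and 11.1 in untreated seed and AT1G05575 at 16.2 and the floor, so both were under 3-fold above unimbibed seed, at 2.59-fold and 2.74-fold. AT3G06210 was at 12.8 and the floor, and AT1G22160 and AT5G40690 were at the floor in both.

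**Figure D3:**
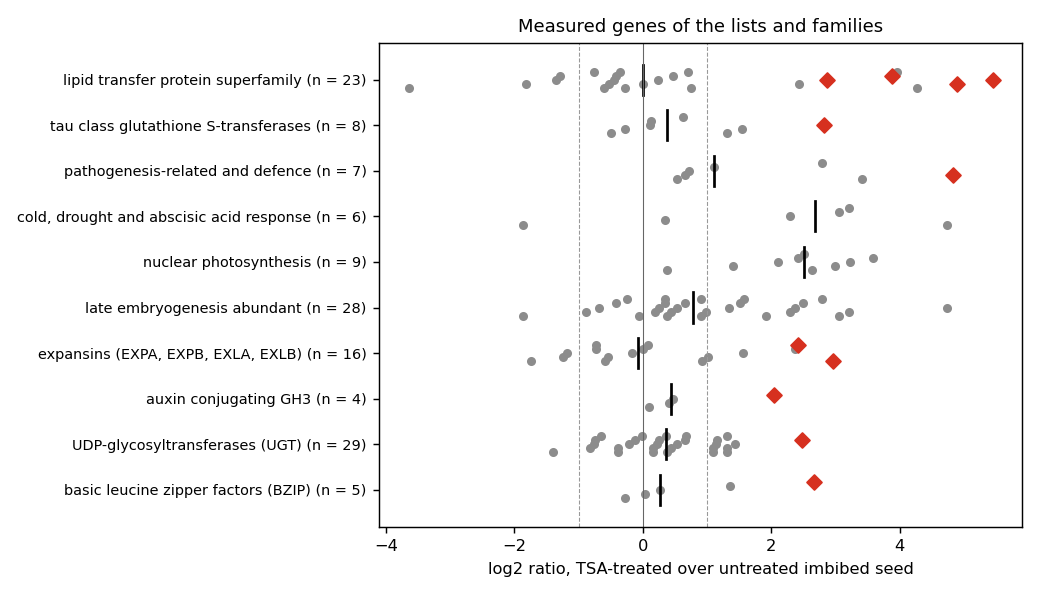
Log2 ratio of TSA-treated over untreated imbibed seed for each measured gene of 6 written lists and of 4 families taken by symbol, with members as red diamonds, other genes as grey dots and the median as a black bar. Dashed lines mark 2-fold; vertical offsets within a row only separate the dots. Members lie at a log2 ratio of 2 or more in every row because they were chosen by this ratio, and the 4 families were taken after the members were known; no gene of the photosynthesis, late embryogenesis and cold or drought rows is a member.

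The lists of nuclear photosynthesis, late embryogenesis and cold or drought genes held no members. Over all measured probe sets 10.4% were at least 2-fold higher with TSA and 9.51% at least 2-fold lower. Of 46 listed nuclear photosynthesis loci only 9 were paired with their own probe set by the annotation, and all 9 were measured. Of these 9 genes 8 were at least 2-fold higher with TSA, around a median log2 ratio of 2.51. Late embryogenesis abundant genes, which protect drying cells, had their own probe set for 36 of 52 listed loci. Of the 28 measured, 11 were higher and 1 lower, with a median of 0.78. Of 23 loci on the cold, drought and abscisic acid list only 7 had their own probe set. Of the 6 measured, 4 were higher and 1 lower, with a median of 2.67. Across these lists 19 different genes rose, and each was over the limit of 21.5 in a low state. For 15 this was so in untreated seed: HPR, a photorespiration enzyme, went from 69.0 to 828, AT3G02480 from 55.4 to 1485 and COR47 from 133 to 1227. The other 4, AT4G36600, AT3G53040, M10 and LEA, were under it in untreated seed and over it in unimbibed seed only. COR15B and AT2G03850 were under the limit in both low states, but reached only 21.6 and 14.8 with TSA. The list of silent embryo and developmental regulators could not be read. The annotation paired only 1 of its 26 loci with a probe set of its own, and that was at the floor in imbibed seed.

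The same limits were then applied with the imbibed arrays exchanged, to see how many probe sets were seen only without TSA. This gave 19 probe sets, against 132 seen only with TSA. The 19 were 0.18% of the 10571 probe sets under 2 times the floor in unimbibed and TSA-treated seed, and the 132 were 1.22% of the 10805 under it in unimbibed and untreated seed. The brightest of the 19 had an untreated signal of 115. A signal of 8 times the floor was reached by 56 of the 132 and 3 of the 19, and 16 times by 21 and 0. This difference in number depended on the scaling: with the poly-A control transcripts set equal, 100 probe sets were seen only with TSA and 141 only without it. As deposited, the poly-A controls gave 1.38-fold more signal with TSA than without (mean log2 ratio 0.46, SD 0.21 over 27 probe sets), and the hybridisation controls 1.07-fold more (0.10, SD 0.14 over 18).

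**Figure D4:**
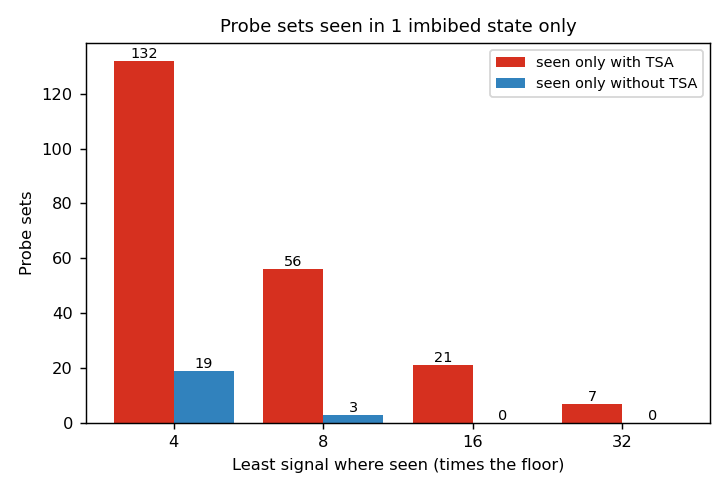
Number of probe sets seen only with TSA (red) and only without TSA (blue), by the least signal required in the state where they were seen, as multiples of the floor. At 4 times the floor the counts are 132 and 19, at 8 times 56 and 3, and at 16 times 21 and 0; with poly-A control scaling the order at 4 times is the opposite, 100 and 141.

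Which probe sets were members depended on the floor more than how many were. With the floor at the 25th percentile of all signals, 171 probe sets met the limits and 54 of these were among the 132. With the floor at the 60th percentile there were 104, of which 48 were among the 132. Across 4 other scalings and these 2 floors, 20 of the 132 met the limits every time, and 13 of the 20 had a gene name. The 13 were AT5G04120, AT3G53980, ECS1, AT4G38080, AT3G06070, AT3G16530, THI2.2, AT2G05540, OSM34, AT1G18980, AT1G26380, AT2G22510 and AT1G67870. Of these, 4 are in the wall group and 5 in the defence group above. Roles were counted among the named members only, so no share over the array stands beside these counts. All 20 also met the limits when the low states had to be at the floor and when the TSA limits were 8 in place of 4. This follows from meeting the limits at both other floors, so it is no further check. AT2G37870, the brightest named member, met them under 5 of the 6. A total of 16 members, 9 of them named, met them under 2 or fewer. These were AT3G22620, AT1G56320 and AT5G13770 under 2, AT2G16005, AT2G25450, AT1G36380, AT1G30700 and AT4G01330 under 1, and GH3.3 under 0 of the 6. The median log2 ratio of the 132 themselves was 3.11 under the lower floor and 1.76 under the higher.

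**Figure D5:**
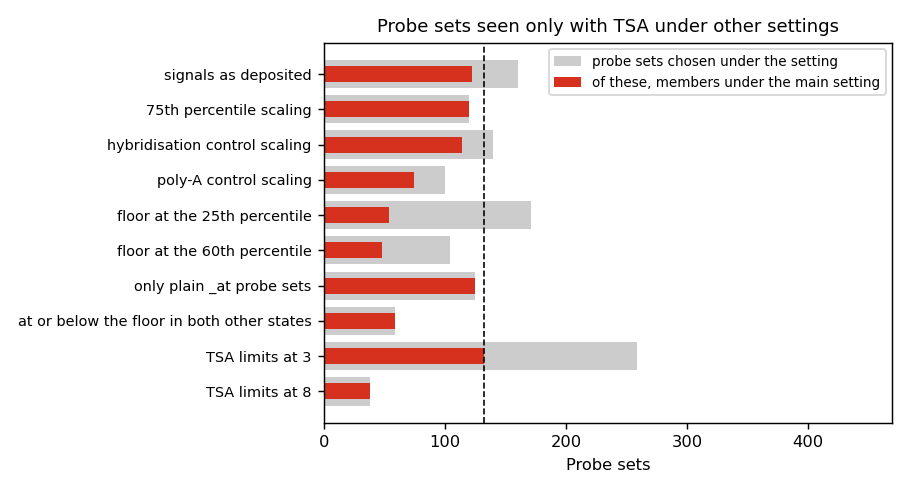
Number of probe sets seen only with TSA under each other setting (grey bars) and how many of them are among the 132 of the main setting (red bars); the dashed line marks 132. The counts run from 38 with TSA limits at 8 to 259 with limits at 3, and 74 of the 132 are kept with poly-A control scaling.

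The values around each limit were close. The highest unimbibed signals inside the limit of 21.5 were 21.1, 20.7 and 19.97, and the nearest outside were 22.6, 23.0 and 25. For the untreated signal the values inside were 21.3, 20.8 and 20.8, and those outside were 21.5, 22.2 and 22.4. For the ratio of TSA-treated to untreated seed the lowest inside were 4, 4.03 and 4.04, and the highest outside 3.999, 3.91 and 3.89. For the TSA signal itself the lowest inside were 42.9, 43.4 and 43.5; no probe set could fail that limit alone, since a ratio of 4 over a signal at or above the floor already implies it. The unimbibed limit alone kept out 55 probe sets, the untreated limit 94 and the ratio 83.

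Probe set type and position, which the choice did not use, were also examined. Probe sets designed to match a single transcript made up 125 of the 132, which is 94.7%, against 95.3% of the array. The other 7 can also bind related transcripts. No 2 named members lay within 10 protein-coding genes of each other on the chromosome, in the gene order of assembly TAIR10.1. The genes next to the 70 named members on either side numbered 140, of which 44 had their own probe set and were measured in imbibed seed. Of the 44, 4 were at least 2-fold higher with TSA, which is 9.09% against 10.4% over all measured probe sets, and 2 were at least 2-fold lower. The median log2 ratio of these neighbours was 0.08. The comparison of shares changed with the floor. With the floor at the 25th percentile 18.9% of neighbours were higher against 12.8% of all measured probe sets. With the floor at the 60th percentile the shares were 17.4% and 9.96%.

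The 4 higher neighbours were AT4G36600, AT2G20740, AT1G74470 and AT5G01750. AT4G36600, next to AT4G36610 and a late embryogenesis abundant gene, went from 1429 in unimbibed seed to the floor in untreated seed and 55.2 with TSA. AT2G20740, next to EXPB1, had a mean log2 ratio of 1.68 over its 2 probe sets. AT1G74470, next to AT1G74460, rose from 617 to 1560, and AT5G01750, next to AT5G01740, from 63.0 to 149. The neighbours that fell were AT5G13780, next to AT5G13770, and AT1G73230, next to OCT1, with log2 ratios of -1.42 and -1.31. These neighbours are named after their values were seen.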

How the data were processed

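RNA of 3 seed samples was hybridised to Affymetrix ATH1 arrays, 1 per sample. The deposited values are linear intensity signals, 1 per probe set, which the submitters' processing notes credit to MAS5. Its version and scaling target were not given in the sources used here, and no detection calls were used. Of 22810 probe sets, 64 AFFX controls were set aside. Signals were multiplied by 1.44, 0.877 and 0.859 (unimbibed, untreated, TSA) to give the same 2% trimmed mean, and values under the 40th percentile were raised to it. Equal trimmed means hide any change in total messenger RNA. The number of arrays limits the precision. Probe sets of 1 locus above the floor on both imbibed arrays differed in their log2 ratio with SD 0.38 over 49 loci. This spread lies between probe sets on the same arrays. It does not cover differences between arrays or seed samples, nor signals at the floor. "Rose" and "fell" mean at least 2-fold.

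Names came from the platform annotation, with symbols updated from RefSeq genes of assembly TAIR10.1: 13513 probe sets had 1 gene (13436 matched, 77 kept an older name), 503 several and 8730 none. A list's value is the median over measured loci, each the mean of its probe sets; summed marker signals are of scaled values before the floor. Members and lists were chosen with earlier results of these data known. All members with 1 gene are named; values are given for the 20 brightest, the 5 dimmest and those in a list, and others by role. No sequences were used, so planned promoter and protein descriptions were not made. The steps of the selection were run on simulated data with signals planted at set multiples of the floor. The simulated noise was of the same size at all signal levels. This checked the steps only and not the noise of signals near the floor. Python 3.11.15, pandas 2.3.3 and scipy 1.17.1 were used.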

Additional observations from a re-analysis of the deposited data

How the results depend on the processing

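With 1 array per state, neither a replicate nor a batch can be left out, and depth cannot be judged beyond signal over the floor. No paired analysis was possible because each state has a single sample. The member count of 132 stayed within 1.5-fold under the scaling, floor and probe set type alternatives, from 100 (poly-A control scaling) to 171 (floor at the 25th percentile). It moved where the limits themselves changed: 59 with both low states at the floor, 259 with TSA limits at 3 and 38 with limits at 8. The count of 70 named genes moved to 30, 135 and 18 under the same limits and to 46 with poly-A control scaling. The median log2 ratio of 2.58 was 2.71, 2.01 and 3.83 over the members chosen anew under those limits and 2.51 to 2.71 under the other settings; each choice sets a least ratio, so these medians say nothing about stability. Over the 132 themselves it was 1.76 with the floor at the 60th percentile, 3.11 at the 25th, and from 2.52 to 2.74 under the other scalings. The excess of probe sets seen only with TSA over those seen only without it, 113, was examined under alternatives chosen after seeing the data. It reversed to -41 with poly-A control scaling, which moved log2 ratios by -0.43, and was 53, 201 and 38 under the changed limits and from 89 to 125 otherwise. The share of neighbouring genes at least 2-fold higher ran from 6.12% (poly-A control scaling) to 18.9% (floor at the 25th percentile). Over all measured probe sets the shares under these 2 settings were 6.38% and 12.8%. With the floor at the 60th percentile the shares were 17.4% and 9.96%, and in the main setting 9.09% and 10.4%. The 95% exact binomial interval of the main share was 2.53 to 21.7%. It covers counting error only, treats neighbouring genes as independent and is too wide to show that the share was stable.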
